A study of Mus musculus with 18 samples.

Results

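Estradiol (E2), the main ovarian estrogen, and progesterone (P4) were compared with each other in the uterus of mice that received no doxorubicin. The comparison rests on 6 of the 18 libraries in the series, the 3 labelled PBS with E2 and the 3 labelled PBS with P4, chosen by their labels alone. The 3 libraries labelled PBS with OIL were used only as the reference that shows whether a gene differed between the hormones because its level moved under one of them or under both. The series as a whole crossed the chemotherapy drug doxorubicin (DOX), or its vehicle PBS, with OIL, E2 or P4, and sequenced total RNA from whole uterus. All groups used here were ovariectomized adult CD-1 mice, an outbred stock, and all received PBS in place of DOX. The OIL group is therefore a uterus without ovarian hormones and stands for no stage of the natural cycle. A homogenate of the whole organ mixes epithelium, stroma, muscle, vessels, blood cells and attached fat. Hormone doses, the time from hormone to collection and exact ages were not stated in the labels. The labels do not say that the 3 libraries of a group came from separate animals, so the p-values measure only the spread between libraries. That spread was estimated within the groups of all 18 libraries of the series, those given DOX included.

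E2 acts mainly through the estrogen receptor encoded by Esr1 and drives growth, water uptake and secretion in the uterus, and it raises the progesterone receptor encoded by Pgr. P4 acts through that receptor, opposes the growth of the luminal epithelium and prepares the stroma for implantation. A known route of its action runs from the epithelial ligand Indian hedgehog to the stromal receptor Ptch1 and the transcription factors Nr2f2 and Hand2.

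The 9 PBS libraries held between 18690495 and 39783785 counts, with E2 replicate 1 the deepest. On principal component 1 of the 9 libraries, which carried 54.4% of the variance over the 1000 most variable genes, the E2 libraries lay at 30.5 to 62.2 and the P4 libraries at -41.2 to -29.2, with OIL between them at -16.1 to -3.95. Levels are given below as CPM, the usual scaling of counts to a common library size, in replicate order 1, 2 and 3. A difference is a log2 fold change of E2 against P4 with its standard error (SE), positive where E2 was higher. A gene was called, and is described as higher or lower, where the adjusted p was under 0.05 in edgeR's quasi-likelihood test over 15494 genes. Every adjusted p below comes from that test. In a bulk library, fewer cells of a type and less RNA per cell cannot be told apart.

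The uterine transcriptome differed widely between E2 and P4. Of 15494 genes, 8919 (57.6%) were called, 4516 (29.1%) higher under E2 and 4403 (28.4%) higher under P4, so 50.6% of the calls were higher under E2. With a fold change of at least 2 in addition, 1438 genes (9.28%) were higher under E2 and 1629 (10.5%) higher under P4, together 19.8%. The median log2 difference over all genes was -0.01. Scaling by total counts moved that median by -0.13 and gave 3606 higher and 5397 lower, 40.1% higher. Counts within the lists of genes below are to be read against these shares of all genes.

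Among genes whose log2 CPM averaged 1 or more over the 9 libraries, the largest differences on the E2 side were in enzymes, secreted factors and an epithelial keratin. Ptpn5, a tyrosine phosphatase best known from neurons (chromosome 7, 47077795 to 47133684, GRCm38), stood at 306.6, 194.2 and 274.3 CPM under E2 and at 1.89, 1.04 and 0.993 CPM under P4. Every E2 library lay far above every P4 library, and OIL, at 2.14, 2.41 and 1.49 CPM, resembled P4 in level. The difference was 7.62 ± 0.53 (SE, n = 3 and 3, adjusted p = 5.56e-08). Padi1, which converts arginine to citrulline in proteins, stood at 982.9, 276.4 and 342.9 CPM under E2 and at 5.35, 0.82 and 2.74 CPM under P4. The groups did not overlap, and OIL lay between them at 60.0, 40.6 and 45.5 CPM. Its difference was 7.49 ± 0.77 (adjusted p = 1.15e-06). Has1, a hyaluronan synthase, differed by 6.38 ± 0.60, and Gadd45g, a stress-inducible growth arrest gene, by 6.02 ± 0.40. Inhbb encodes the beta B subunit of activin and inhibin (chromosome 1, 119415465 to 119422248). It stood at 1393, 948.1 and 1124 CPM under E2, at 21.6, 11.8 and 19.3 CPM under P4 and at 30.8, 30.3 and 32.6 CPM under OIL. All 3 E2 libraries were high, and the difference was 6.04 ± 0.30 (adjusted p = 6.41e-09).

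Another 5 genes completed the 10 with the largest differences at that level. Clca3, a secreted protein of a family of near-identical copies and so of uncertain assignment, was high under both E2 (54.8, 69.1 and 55.6 CPM) and OIL (63.0, 44.4 and 65.0 CPM). Only the P4 libraries were low, at 1.08, 0.647 and 1.32 CPM, and the difference was 5.88 ± 0.57. Krt4, a keratin of stratified epithelium, ranged from 3.36 to 68.2 CPM among the E2 libraries and from 0.52 to 0.561 CPM under P4, a difference of 5.71 ± 0.93. Apold1, an early response gene of endothelium, differed by 5.16 ± 0.40. Lif, the cytokine required for implantation in mice, stood at 46.5, 16 and 35.6 CPM under E2 and at 1.26, 0.863 and 0.899 CPM under P4, a difference of 5.02 ± 0.40. Lrtm2, a membrane protein with leucine-rich repeats, differed by 4.94 ± 0.38.

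On the P4 side the largest differences at that level were in carriers, transporters and a few enzymes. Ttr, the carrier of thyroid hormone and retinol, stood at 18.8, 40.6 and 28.8 CPM under P4 and at 0.111, 0.867 and 0.367 CPM under E2. No E2 library reached 1 CPM, and the difference was -6.19 ± 0.53 (adjusted p = 2.55e-07). Slc6a14, a transporter of neutral and cationic amino acids, stood at 37.1, 35.4 and 37.8 CPM under P4 and at 1.03, 1.36 and 1.05 CPM under E2. Its P4 libraries were tightly grouped, OIL was as low as E2 at 1.38, 1.3 and 1.96 CPM, and the difference was -5.02 ± 0.20 (adjusted p = 6.34e-10). Npl, a lyase of sialic acid breakdown, stood at 112.3, 179.4 and 151.2 CPM under P4 and at 5.4, 3.9 and 5.03 CPM under E2, a difference of -4.94 ± 0.26. The chloride channel Ano2 differed by -4.99 ± 0.69, the organic anion carrier Slco4c1 by -4.81 ± 0.45 and the Frizzled ligand Ndp by -4.51 ± 0.41. Pla2g10, a secreted phospholipase, differed by -4.47 ± 0.33, and S100g, the calcium carrier calbindin-D9k, by -4.42 ± 0.43. Hif3a, a relative of the hypoxia factors, differed by -4.21 ± 0.35 and St6gal2, a sialyltransferase, by -4.12 ± 0.70. Absence of overlap between the E2 and P4 libraries was a condition for naming these 10 genes and the 10 on the E2 side. Genes under that mean level could differ as much, among them the signalling peptides Areg (-7.34 ± 0.67) and Calca (-5.04 ± 0.58) on the P4 side and Gdf15 (6.56 ± 0.74) on the E2 side. Calca was named after its values were seen.

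**Figure D1:**
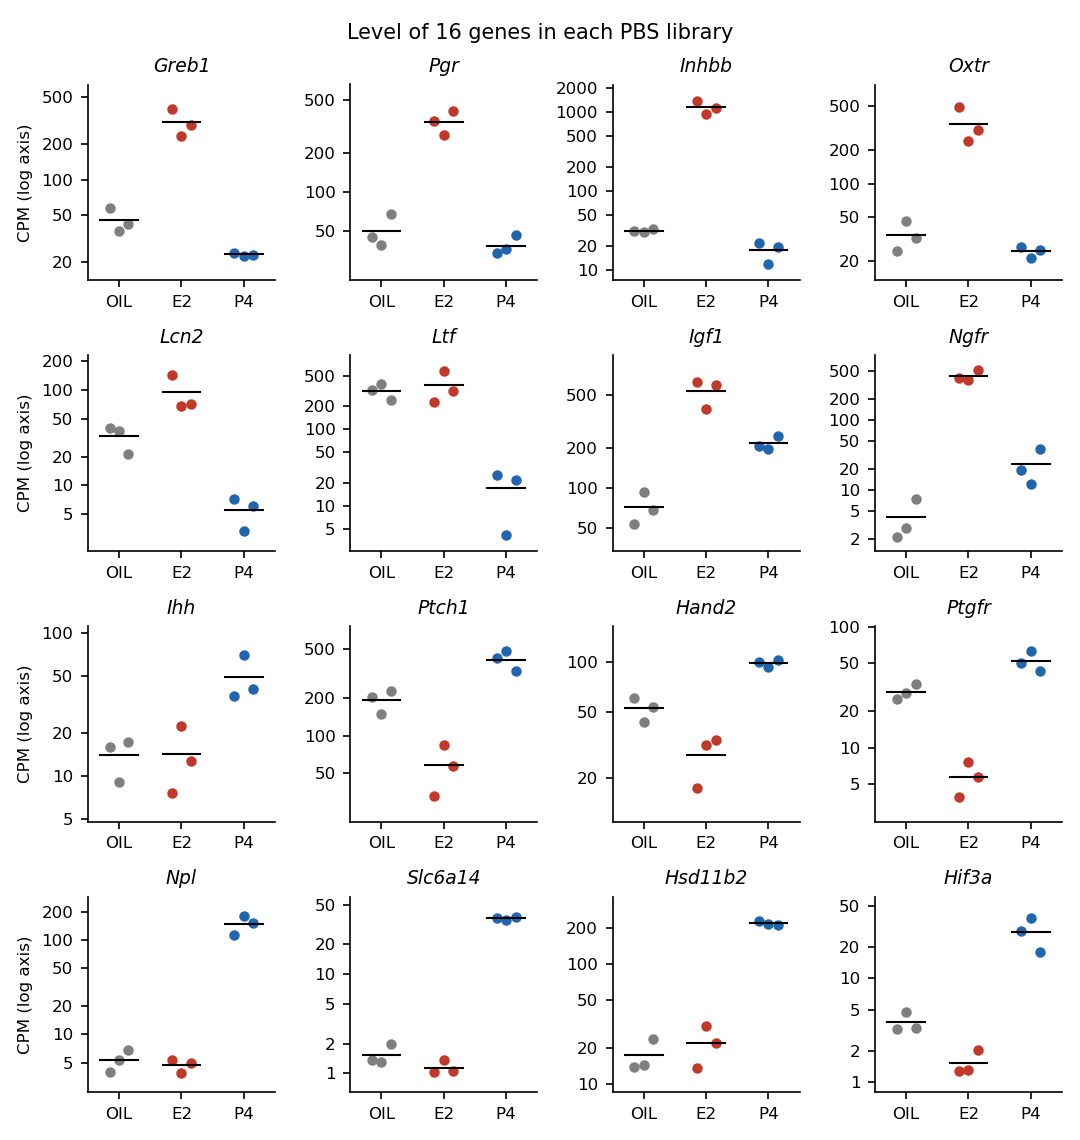
Levels of 16 genes in each of the 9 PBS libraries, in CPM on a log axis, with 1 point per library and a bar at the group mean for OIL, E2 and P4. Inhbb reached 1393 CPM under E2 and at most 21.6 CPM under P4, while Npl reached 179.4 CPM under P4 and at most 5.4 CPM under E2.

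Of the main receptors of the 2 hormones, only that of P4 was called. Pgr, the progesterone receptor (chromosome 9, 8899833 to 8968611), stood at 345.8, 271.2 and 413.5 CPM under E2 and at 34.0, 36.5 and 46.6 CPM under P4. P4 levels were low, as in OIL (39.6 to 67.5 CPM), every E2 library was far above both, and the difference was 3.14 ± 0.21 (adjusted p = 5.18e-08). Of the 14 steroid receptor genes tested, Pgr was the only one higher under E2 and 7 were higher under P4, with a median of -0.52. Among those 7 were the membrane estrogen receptor Gpr30 (-2.36 ± 0.40), the membrane progesterone receptors Paqr5 (-1.21 ± 0.27), Paqr7 (-0.89 ± 0.20) and Paqr8 (-0.94 ± 0.16), Pgrmc1 (-0.50 ± 0.11) and the estrogen-related receptor Esrra (-0.37 ± 0.12). Without E2 replicate 1 the call of Esrra ended at -0.23 (adjusted p = 0.078). Without P4 replicate 3 Esrra stood at -0.32 (adjusted p = 0.0543). Esr1 was not called: it stood at 506.8, 801.7 and 777.3 CPM under E2 and at 523.1, 563.2 and 561.6 CPM under P4, a difference of 0.34 ± 0.15 (adjusted p = 0.0652). Leaving out E2 replicate 1, the lowest of its group, gave 0.52 (adjusted p = 0.00234).

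Cofactors and chaperones of the receptors split evenly, with 7 higher under E2 and 7 higher under P4 of 18. Greb1, a direct estrogen receptor target and cofactor (chromosome 12, 16670615 to 16800886), stood at 401.9, 234.1 and 290.6 CPM under E2 and at 23.9, 22.4 and 23.1 CPM under P4. All P4 libraries were below all OIL libraries (36.7 to 57.5 CPM) and all E2 libraries above them, with a difference of 3.74 ± 0.20 (adjusted p = 9.8e-09). The receptor chaperones Hsp90aa1 (1.74 ± 0.18) and Ptges3 (0.97 ± 0.09) were also higher under E2. Cited2, a transcriptional coregulator, stood at 12, 11.4 and 11.1 CPM under E2 and at 52.4, 43.6 and 35.9 CPM under P4, a difference of -1.93 ± 0.15, and the corepressor Tle1 differed by -1.21 ± 0.08. Both had OIL levels nearer to P4 than to E2.

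Among 16 tested genes of steroid metabolism, 4 were higher under E2 and 6 higher under P4. Hsd11b2, which inactivates glucocorticoids, stood at 226.4, 213.1 and 212.5 CPM under P4 and at 13.6, 30.4 and 21.9 CPM under E2. The E2 and OIL libraries overlapped, every P4 library was well above them, and the difference was -3.32 ± 0.32 (adjusted p = 7.44e-07). Srd5a3, named for a steroid reductase, differed by -1.03 ± 0.15. The 4 genes higher under E2 were the hydroxysteroid dehydrogenases Hsd17b7 (2.18 ± 0.22), Hsd17b11 (0.98 ± 0.11) and Akr1c14 (2.81 ± 0.26) and the cholesterol carrier Star (1.23 ± 0.32).

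A list of 41 tested genes that the field knows as induced by estrogen in the uterus had a median difference of 1.96, with 27 higher under E2 and 3 higher under P4. Against OIL its median was 1.83 under E2 and -0.25 under P4, where the medians over all genes were -0.09 and -0.01. Ramp3, a coreceptor for adrenomedullin, stood at 303.8, 174.1 and 206.9 CPM under E2 and at 12.3, 9.49 and 12.5 CPM under P4, a difference of 4.32 ± 0.31. The P4 libraries lay in the OIL range of 6.73 to 15.3 CPM. The 3 genes higher under P4 were Slc6a14, Wnt5a (-0.86 ± 0.17) and the creatine kinase Ckb (-0.94 ± 0.19), and without E2 replicate 1 there were 5. Ltf, the secreted iron binder lactoferrin and a textbook estrogen gene, stood at 229.6, 579.4 and 320.6 CPM under E2 and at 321.9, 395.5 and 239.3 CPM under OIL. E2 and OIL overlapped, while P4 stood at 25.6, 4.14 and 21.8 CPM, so that the difference of 4.45 ± 0.86 (adjusted p = 0.000381) went with low P4 levels.

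Of 43 tested genes known as induced by progesterone, 29 were higher under P4 and 7 higher under E2, with a median of -1.34. The medians against OIL were 0.83 under P4 and -0.44 under E2. Zbtb16, a transcription factor that responds to several steroids, stood at 123.7, 103.0 and 96.2 CPM under P4 and at 10.5, 7.7 and 6.97 CPM under E2, a difference of -3.67 ± 0.28 (adjusted p = 8.45e-08). Tsc22d3, also a glucocorticoid target, showed another pattern: it stood at 234.3, 209.5 and 196.9 CPM under P4 and at 199.1, 215.6 and 203.9 CPM under OIL. Only E2 was low, at 49.5, 82.1 and 73.0 CPM, and the difference was -1.65 ± 0.16. Il13ra2, a decoy receptor for interleukin 13, differed by -3.12 ± 0.48. On the other side was Hbegf, the EGF-like ligand of implantation, which stood at 42.3, 43.8 and 70.4 CPM under E2 and at 6.48, 6.64 and 9.03 CPM under P4. Its difference was 2.82 ± 0.24, and all E2 libraries were above all others.

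The hedgehog pathway was among the lists with the largest share of calls, 86.4% of 22 genes, 16 of them higher under P4. Ihh, the epithelial ligand, stood at 36.2, 70.2 and 40.6 CPM under P4 and at 7.66, 22.5 and 12.8 CPM under E2, with OIL at 16, 9.01 and 17.2 CPM. E2 and OIL overlapped, and the difference was -1.79 ± 0.41 (adjusted p = 0.00145). Its receptor and target Ptch1 (chromosome 13, 63508328 to 63573598) stood at 420.7, 475.9 and 331.0 CPM under P4, at 32.4, 84.3 and 56.4 CPM under E2 and at 204.0, 148.3 and 228.2 CPM under OIL. All 3 groups were apart, with P4 above OIL and E2 below it, and the difference was -2.83 ± 0.29 (adjusted p = 1.11e-06). Nr2f2, the stromal nuclear receptor COUP-TFII, differed by -1.53 ± 0.15 and Hand2, the stromal factor that restrains epithelial growth, by -1.83 ± 0.20. In both genes E2 was lower than OIL (-0.95 and -0.93) and P4 higher than OIL (0.58 and 0.89).

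Among other members of the pathway the difference between E2 and P4 varied in size and direction. Gli1, the target that usually reports pathway activity, stood at 469.4, 505.7 and 469.0 CPM under P4 and at 259.5, 408.2 and 348.3 CPM under E2, a difference of -0.51 ± 0.18 (adjusted p = 0.0274). That call ended without E2 replicate 1 (-0.35, adjusted p = 0.136), E2 replicate 3 (-0.53, adjusted p = 0.0522) or P4 replicate 2 (-0.47, adjusted p = 0.076). Hhip, an inhibitor that binds the ligands, differed by -2.72 ± 0.49, and Sufu, an intracellular inhibitor, by -0.65 ± 0.08. The 3 genes higher under E2 were the ligand Dhh (14.8, 10.1 and 15.1 CPM under E2 and 0.863 to 1.44 CPM under P4, a difference of 3.46 ± 0.35), Scube1 (2.42 ± 0.38) and Scube3 (0.98 ± 0.33). The call of Scube3 ended without E2 replicate 1 (0.85, adjusted p = 0.0682), E2 replicate 3 (0.88, adjusted p = 0.0556) or P4 replicate 3 (0.90, adjusted p = 0.0586). Markers of endometrial stroma, some of which are members of this list, were higher under P4 in 8 of 13 and higher under E2 in 1, Pdgfrb. Their part in these results was not tested. The call of Pdgfrb, at 0.48 ± 0.15, ended without E2 replicate 3 (0.37, adjusted p = 0.0589) or P4 replicate 2 (0.37, adjusted p = 0.0628).

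Growth factors of the EGF and FGF families were higher under E2 in 10 of 27 and higher under P4 in 5. Areg, an EGF receptor ligand (chromosome 5, 91139599 to 91148432), had no count in any OIL library, stood at 0.111, 0 and 0 CPM under E2 and at 7.06, 7.81 and 13.2 CPM under P4. Pooled over the 3 P4 libraries its level of 9.27 CPM was at least 202.2-fold higher than the OIL group could hold, taking 3 counts over the group as the upper limit that a count of 0 allows. The adjusted p of E2 against P4 was 9.96e-07. The other members higher under P4 were Fgf10, Btc (-0.97 ± 0.25), Egfr (-1.01 ± 0.18) and Erbb3 (-0.87 ± 0.19). Fgf10, at -0.81 ± 0.28 and -0.53 without E2 replicate 2 (adjusted p = 0.0913), also lost its call without E2 replicate 3 (adjusted p = 0.0506), P4 replicate 1 (adjusted p = 0.0823) or P4 replicate 3 (adjusted p = 0.0584). On the E2 side the receptor Fgfr3 differed by 2.38 ± 0.16, with E2 libraries at 56.4 to 77.4 CPM and P4 libraries at 11.6 to 13.9 CPM. The neuregulins Nrg1 (2.20 ± 0.30) and Nrg2 (1.77 ± 0.20) were also higher under E2.

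Of 18 IGF ligands, receptors and binding proteins, 4 were higher under E2 and 5 higher under P4, a share of 50% called against 57.6% of all genes, and 9 were not called. Igf1, the growth factor that mediates estrogen-driven epithelial growth (chromosome 10, 87858265 to 87937042), stood at 621.2, 394.9 and 590.1 CPM under E2, at 205.6, 197.6 and 246.7 CPM under P4 and at 54.2, 93.9 and 69.1 CPM under OIL. The 3 groups did not overlap, E2 was highest and OIL lowest, and the difference was 1.31 ± 0.22 (adjusted p = 0.000125). The other genes of the list higher under E2 were Igf2 (1.0 ± 0.26), Igfals (4.20 ± 1.05) and Stc2 (0.69 ± 0.18). Igfbp5 stood at 1158, 976.8 and 1576 CPM under P4 and at 430.4, 415.1 and 517.6 CPM under E2, a difference of -1.44 ± 0.29, and OIL ranged from 221.7 to 475.7 CPM. Igfbp4 (-0.94 ± 0.14), Igfbp6 (-0.85 ± 0.13) and Igfbp7 (-0.78 ± 0.10), which also bind IGFs or resemble those that do, were higher under P4. Igf2r was the fifth such gene, at -0.45 ± 0.17. Its call ended without E2 replicate 1 (adjusted p = 0.14), E2 replicate 3 (adjusted p = 0.0833), P4 replicate 1 (adjusted p = 0.12) or P4 replicate 3 (adjusted p = 0.0555).

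In the TGF-beta, BMP and activin family 12 of 34 genes were higher under E2 and 6 higher under P4. Besides Inhbb, the stress-induced ligand Gdf15 stood at 33.4, 11.8 and 28.4 CPM under E2 and at 0.225, 0.259 and 0.284 CPM under P4, a difference of 6.56 ± 0.74. The BMP targets Id1 (2.48 ± 0.23) and Id3 (1.76 ± 0.24) were higher under E2. Inha, the inhibin alpha subunit, went the other way from its partner Inhbb: it stood at 3.84, 4.44 and 3.51 CPM under E2, at 11.0, 10.4 and 7.95 CPM under P4 and at 16.4, 18.2 and 14.2 CPM under OIL. All 3 groups were apart, OIL was highest, and the difference was -1.32 ± 0.18.

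Wnt pathway genes divided evenly, 14 higher under E2 and 14 higher under P4 of 44, a share of 63.6% called against 57.6% of all genes. The target and feedback inhibitor Axin2 stood at 513.4, 508.0 and 541.6 CPM under E2, at 77.8, 71.1 and 98.4 CPM under P4 and at 198.4, 122.5 and 144.7 CPM under OIL. E2 was above and P4 below every OIL library, and the difference was 2.66 ± 0.17 (adjusted p = 3.85e-08). The ligand Wnt4 differed by 3.33 ± 0.34, with E2 libraries at 160.3 to 231.7 CPM and P4 libraries at 9.63 to 26.9 CPM. In contrast the ligand Wnt11 stood at 26.9, 35.1 and 41.9 CPM under P4 and at 2.87, 6.34 and 4.51 CPM under E2, a difference of -2.94 ± 0.33. The receptor Fzd2 (-2.05 ± 0.23) and the transcription factor Lef1 (-1.48 ± 0.16) were likewise higher under P4.

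Hox genes and other transcription factors of the uterus were mostly on the P4 side, 17 of 30 against 3 higher under E2, with a median of -0.42. Osr2, a stromal zinc finger factor, stood at 544.7, 555.0 and 332.3 CPM under P4 and at 71.9, 119.7 and 109.8 CPM under E2, with OIL between them at 280.5, 222.5 and 286.9 CPM. The 3 groups did not overlap, and the difference was -2.25 ± 0.21. Hoxa10, needed for stromal decidualization, stood at 518.0, 537.1 and 385.2 CPM under P4 and at 67.8, 161.4 and 151.8 CPM under E2, a difference of -1.92 ± 0.24. Hoxa9 (-1.47 ± 0.19) and Gata2 (-1.21 ± 0.15), a partner of the progesterone receptor, followed. The 3 factors higher under E2 were Klf4 (1.96 ± 0.18), Foxo1 (0.45 ± 0.12) and Msx2 (0.92 ± 0.31). The call of Msx2 ended without E2 replicate 3 (0.80, adjusted p = 0.0632) or P4 replicate 1 (0.83, adjusted p = 0.0657).

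Immediate early genes, which respond within minutes to signals at the cell surface, were higher under E2 in 19 of 22 and higher under P4 in none, with a median of 2.30. Junb, an AP-1 subunit, stood at 306.5, 242.9 and 326.8 CPM under E2 and at 26.9, 18.2 and 32.9 CPM under P4. All E2 libraries were high, OIL ranged from 24.2 to 45.2 CPM, and the difference was 3.49 ± 0.30 (adjusted p = 2.94e-07). Maff (3.94 ± 0.34), Ier3 (3.28 ± 0.20), Fosl2 (2.40 ± 0.17) and Ier2 (2.16 ± 0.24) behaved alike in the direct comparison. Against OIL the median of the list was 2.44 under E2 and -0.43 under P4. The 3 genes not called were Fosb (0.90 ± 0.85), Nr4a3 (1.73 ± 0.96) and Jun (0.35 ± 0.17, adjusted p = 0.0906). Without P4 replicate 3, Fosb (2.77, adjusted p = 0.0158) and Nr4a3 (4.45, adjusted p = 0.00134) were called higher under E2 as well.

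Promoters of the genes were searched in the RefSeq sequences of build GRCm38.p6, which matched 10677 of the 15494 tested genes (68.9%), from 250 bases before to 50 after each start and on both strands. The immediate early list was singled out because many of its members are known targets of serum response factor, which binds the CArG box (CC, then 6 bases that are each A or T, then GG). A CArG box was found in 2 of the 17 immediate early genes that had a promoter (11.8%), Egr2 and Zfp36, and in 182 of all 10677 genes (1.70%). The bases from 150 before the start up to the start are printed for these 2 genes, with the CArG box in capitals, on the plus strand of chr10:67537416-67537565 for Egr2 and the minus strand of chr7:28379229-28379378 for Zfp36.
Egr2: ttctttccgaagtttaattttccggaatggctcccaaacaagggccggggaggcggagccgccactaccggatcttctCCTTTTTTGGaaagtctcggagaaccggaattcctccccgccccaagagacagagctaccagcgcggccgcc
Zfp36: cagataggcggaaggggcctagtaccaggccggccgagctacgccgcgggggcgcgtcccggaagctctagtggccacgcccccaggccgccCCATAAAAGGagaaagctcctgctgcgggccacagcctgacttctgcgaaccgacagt
The box began 72 bases before the start of Egr2, where 4 of 5 RefSeq promoters of the gene held it, and 58 bases before the start of Zfp36. Egr2, a zinc finger factor, stood at 22.5, 40.4 and 53.3 CPM under E2 and at 2.79, 1.04 and 6.57 CPM under P4, a difference of 3.49 ± 0.76 (adjusted p = 0.00105). Zfp36, which promotes decay of AU-rich mRNAs, stood at 181.3, 162.7 and 225.4 CPM under E2 and at 56.5, 42.5 and 54.6 CPM under P4, a difference of 1.89 ± 0.22 (adjusted p = 3.74e-06). Neither gene's groups overlapped, and both genes were named after their promoters had been searched.

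The other motifs were rare in these short windows. The full estrogen response element (GGTCA and TGACC with 3 bases of any kind between them) was found in 1 of 10677 genes (0.00937%), in none of the 1007 with promoters that were at least 2-fold higher under E2 and in none of the 1106 at least 2-fold higher under P4. The progesterone and glucocorticoid response element (GNACA and TGTNC with 3 bases of any kind between them) was found in 45 genes (0.421%), in 6 (0.596%) of those higher under E2 and in 6 (0.542%) of those higher under P4. It stood in 1 of the 17 immediate early genes (5.88%, Jund), in 1 of 34 estrogen-induced genes (2.94%, Mt1) and in 1 of 31 progesterone-induced genes (3.23%, Sgk1), each named after the search. No CArG box was found in the latter lists. The CArG box stood in 16 (1.59%) and 15 (1.36%) of the same sets. The sterol regulatory element (ATCAC followed directly by CCCAC) was found in 10 genes (0.0937%), in none and in 1 (0.0904%) of the same sets, and in none of the 16 cholesterol genes with a promoter. A match is a description of letters in this window and no evidence of binding, and the absence of a match says nothing about the factor.

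Among genes of protein and lipid synthesis, more were higher under E2 than under P4. Of 39 ribosome biogenesis genes 38 were higher under E2 and none higher under P4, with a median of 1.47, and the exception was Polr1c (0.11 ± 0.09). Nop58, a core protein of the snoRNA particles that modify ribosomal RNA, stood at 485.5, 311.2 and 368.1 CPM under E2 and at 71.2, 72.8 and 102.0 CPM under P4. The E2 and P4 libraries did not overlap, and the difference was 2.24 ± 0.16 (adjusted p = 7.52e-08). Gtpbp4 (1.99 ± 0.11), Rrp9 (1.96 ± 0.15), Wdr43 (1.89 ± 0.12) and Cirh1a (1.89 ± 0.10), all factors of subunit assembly, had differences of similar size. Against OIL the median of the list was 1.75 under E2 and 0.31 under P4. P4 was thus on the same side of OIL, with 18 of 39 called higher, but that count was 10 without P4 replicate 3.

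Chaperones and stress genes of the endoplasmic reticulum were higher under E2 in 22 of 32 and higher under P4 in none, with a median of 0.59. Atf4, the transcription factor of the integrated stress response, stood at 778.6, 500.2 and 525.2 CPM under E2 and at 131.5, 133.7 and 167.0 CPM under P4. The E2 libraries lay above all others, and the difference was 2.06 ± 0.16. Hyou1 (1.46 ± 0.20), the phosphatase subunit Ppp1r15a (1.77 ± 0.18), the translocon subunit Sec61a1 (0.89 ± 0.10) and calnexin, Canx (0.75 ± 0.09), were also higher under E2. Scaling by total counts put 1 gene of the list on the P4 side.

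Of 26 genes of cholesterol synthesis and uptake 18 were higher under E2 and 4 higher under P4, with a median of 1.12. Cyp51, a demethylase of the pathway, stood at 188.7, 124.1 and 146.0 CPM under E2 and at 21.3, 24.2 and 30.9 CPM under P4, a difference of 2.59 ± 0.17 (adjusted p = 4.85e-08). Idi1 (2.57 ± 0.18), the feedback protein Insig1 (2.54 ± 0.17) and Sc4mol (2.06 ± 0.14) were likewise higher under E2. The exceptions on the P4 side were the enzymes Mvk (-0.79 ± 0.14), Tm7sf2 (-0.85 ± 0.19) and Ebp (-0.50 ± 0.09) and the cholesterol exporter Abcg1 (-0.89 ± 0.25).

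Carriers of amino acids and other nutrients were higher under E2 in 15 of 32 and higher under P4 in 9. Slc7a5, the large neutral amino acid carrier, stood at 507.5, 323.3 and 285.1 CPM under E2, at 44.5, 49.2 and 50.9 CPM under P4 and at 30.8, 24.6 and 28.7 CPM under OIL. All 3 groups were apart, and the difference was 2.95 ± 0.18 (adjusted p = 2.18e-08). The arginine carrier Slc7a1 (2.5 ± 0.21), the lactate carrier Slc16a1 (2.03 ± 0.19) and the glutamine carrier Slc38a1 (1.19 ± 0.10) followed, while Slc6a14 stood at the other end.

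**Figure D2:**
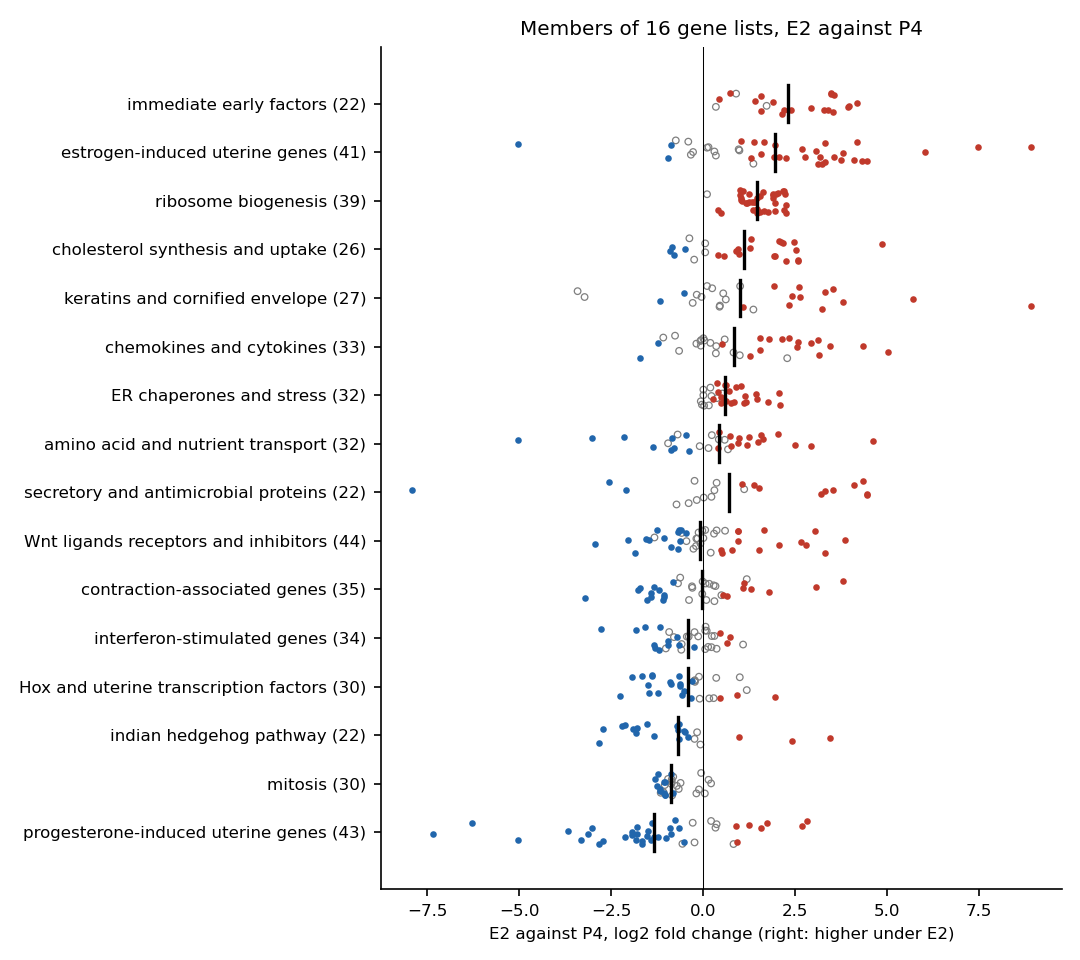
Log2 difference of E2 against P4 for each tested member of 16 gene lists, 1 point per gene, with a bar at the median of each list. The ribosome biogenesis list lies almost wholly on the E2 side with a median of 1.47, and the progesterone-induced and hedgehog lists on the P4 side with medians of -1.34 and -0.67.

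Cell division genes did not follow the biosynthesis genes. Of 30 mitosis genes none was higher under E2 and 12 were higher under P4, with a median of -0.86, a share of 40% called against 57.6% of all genes. Ndc80, a kinetochore protein, stood at 0.891, 1.41 and 0.733 CPM under E2 and at 1.75, 2.54 and 3.12 CPM under P4, a difference of -1.3 ± 0.34 (adjusted p = 0.00417). Ccnb2 (-1.21 ± 0.37) and Anln (-0.86 ± 0.24) were called too. The count rested on single libraries: it was 3 without E2 replicate 1, 7 without E2 replicate 3 and 21 without E2 replicate 2. Cenpe (-1.05 ± 0.32) and Racgap1 (-0.81 ± 0.25) lost their calls without E2 replicate 1 (-0.89, adjusted p = 0.0531, and -0.64, adjusted p = 0.0586). Mki67, the usual marker of cycling cells, stood at 7.6, 22.2 and 7.07 CPM under E2 and at 18.9, 24.9 and 20.3 CPM under P4. Only E2 replicate 2 overlapped with P4, and the difference of -0.81 ± 0.45 (adjusted p = 0.135) was -1.54 without that library (adjusted p = 0.00718).

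Of 38 DNA replication genes 7 were higher under E2 and 6 higher under P4, with a median of 0.05. That is a share of 34.2% called, below the 57.6% of all genes. Pcna, the polymerase clamp, stood at 147.4, 113.4 and 133.4 CPM under E2 and at 58.7, 63.8 and 75.9 CPM under P4, a difference of 0.99 ± 0.12. Mcm4, of the replicative helicase, differed by 0.90 ± 0.12. Gins4 (-0.68 ± 0.10), Pola2 (-0.66 ± 0.14) and Rfc2 (-0.45 ± 0.11), also of the replication machinery, were higher under P4. Without P4 replicate 1 the count on the E2 side was 3. The cell cycle inhibitor Cdkn1a stood at 166.1, 89.6 and 102.0 CPM under E2 and at 17.8, 19.2 and 15.2 CPM under P4, a difference of 2.78 ± 0.36. Ccnd1, the cyclin of early G1, was also higher under E2, at 1.02 ± 0.26.

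Matrix genes were called in both directions, at a share near that of all genes (55.6% against 57.6%). Of 36 collagens and other matrix genes 11 were higher under E2 and 9 higher under P4, and the former count was 7 without P4 replicate 2. Col6a3, a collagen VI chain, stood at 2008, 1230 and 1682 CPM under E2 and at 411.7, 347.2 and 415.6 CPM under P4, a difference of 2.07 ± 0.29 (adjusted p = 1.91e-05). P4 lay in the OIL range, which was 218.1 to 447.0 CPM. Thbs1 (2.09 ± 0.35), Fbln2 (1.68 ± 0.27), Col5a1 (1.66 ± 0.20) and elastin, Eln (1.21 ± 0.22), were also higher under E2. Adamts1, a protease of versican, stood at 1102, 695.1 and 1175 CPM under E2, at 250.7, 203.5 and 302.3 CPM under P4 and at 64.4, 99.6 and 106.8 CPM under OIL. It rose under both hormones, further under E2, with a difference of 1.97 ± 0.24.

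Hyaluronan genes differed member by member. Has1 was on the E2 side, at 108.7, 46.2 and 72.8 CPM against 0.765, 0.302 and 1.7 CPM under P4. Its relatives Has2 (-1.33 ± 0.34) and Has3 (-1.51 ± 0.23) and the linker Hapln1 (-2.93 ± 0.41) were on the P4 side, while the hyaluronidases Hyal1 (0.98 ± 0.14) and Hyal2 (1.11 ± 0.09) were higher under E2. Among metalloproteinases, plasminogen activators and their inhibitors 6 of 22 were higher under E2 and 5 higher under P4, of which 3 to 5 were called without any one library. Plaur, the urokinase receptor, stood at 36.8, 21.2 and 35.5 CPM under E2 and at 3.33, 2.24 and 5.63 CPM under P4, a difference of 3.07 ± 0.47. Timp3 (0.89 ± 0.13), an inhibitor, was higher under E2. Mmp15 (-1.05 ± 0.24), Mmp11 (-0.83 ± 0.20), Mmp16 (-0.91 ± 0.24), Mmp9 (-0.83 ± 0.31) and the inhibitor Reck (-0.49 ± 0.18) were higher under P4. The calls of Mmp9 (-0.54, adjusted p = 0.151) and Reck (-0.25, adjusted p = 0.101) ended without E2 replicate 1 and in other fits that left out a library.

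Genes of the epithelial surface and its secretions were more often higher under E2. Keratins and cornified envelope genes were higher under E2 in 12 of 27 and higher under P4 in 2, with a median of 1.01. Krt7, a keratin of simple epithelium, stood at 113.1, 59.0 and 56.6 CPM under E2 and at 15.7, 16.1 and 28.0 CPM under P4, a difference of 1.94 ± 0.27. Tgm1, a crosslinking enzyme (3.54 ± 0.31), and the desmosomal cadherin Dsc2 (2.42 ± 0.24) were also higher under E2. The 2 members higher under P4 were Ppl (-0.53 ± 0.09) and Lor (-1.16 ± 0.33), which encode periplakin and loricrin. Markers of luminal epithelium were higher under E2 in 4 of 17 (Elf3, Wnt7a and Wnt7b among them) and higher under P4 in 5 (Cldn3, Cldn4, Ehf, Lpar3 and Calb1), and their summed level was 915.1 to 1271 CPM under E2 and 1293 to 1973 CPM under P4. That sum did not overlap between the groups, but without Calb1 alone it was 1236, 1161 and 863.5 CPM under E2 and 997.9, 1318 and 1464 CPM under P4, which overlap. The median of the list was -0.06, and the part of these markers in the results was not tested.

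Secreted and antimicrobial proteins were higher under E2 in 10 of 22, a count of 6 without P4 replicate 1, and higher under P4 in 3. The mucin Muc4 differed through low P4 levels. It stood at 1.57, 1.42 and 3.69 CPM under P4 against 30.8, 28.9 and 16.9 CPM under E2 and 24.8, 21.6 and 20.6 CPM under OIL. E2 and OIL overlapped, and the difference was 3.53 ± 0.35 (adjusted p = 8.79e-07). Muc20 differed by 3.20 ± 0.40 and Muc1, the mucin of the non-receptive luminal surface, by 1.38 ± 0.25. Lcn2, a siderophore-binding lipocalin, stood at 144.3, 68.2 and 70.7 CPM under E2, at 7.15, 3.28 and 6.1 CPM under P4 and at 40.3, 36.7 and 21.1 CPM under OIL. The 3 groups did not overlap, and the difference was 4.10 ± 0.39. The 3 genes higher under P4 were Wfdc3 (-2.09 ± 0.46), Lyz1 (-2.56 ± 0.61), which stood at -1.49 without P4 replicate 2, and Spink3, at 2.16, 7.38 and 4.16 CPM under P4 and at most 0.0278 CPM under E2.

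Transporters of water and ions were divided, 12 higher under E2 and 10 higher under P4 of 34, a share of 64.7% called against 57.6% of all genes. The channel Aqp8 stood at 17.2, 7.59 and 9.64 CPM under E2 and at 0.27, 0.345 and 0.473 CPM under P4, a difference of 4.97 ± 0.48. Aqp11, its intracellular relative, stood at 9.04, 12.9 and 11.8 CPM under P4 and at 0.78, 1.19 and 1.15 CPM under E2, a difference of -3.45 ± 0.28. The sodium pump subunit Atp1b1 (-2.38 ± 0.20) and its regulator Fxyd4 (-2.86 ± 0.34) were higher under P4, and the potassium channel Kcnk5 (2.40 ± 0.18) was higher under E2. Among epithelial proteases, Klk1 (3.71 ± 0.59) and Prss23 (1.58 ± 0.21) were higher under E2 and Prss8 (-1.04 ± 0.24), which activates the sodium channel ENaC, higher under P4.

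The genes of uterine contraction were 8 higher under E2 and 12 higher under P4 of 35. Oxtr, the oxytocin receptor, stood at 488.1, 240.1 and 305.2 CPM under E2 and at 27.0, 21.6 and 25.4 CPM under P4. P4 was in or below the OIL range of 24.6 to 46.1 CPM, and the difference was 3.80 ± 0.32 (adjusted p = 2.14e-07). The prostaglandin F receptor Ptgfr had the opposite order: it stood at 50.5, 63.2 and 42.8 CPM under P4, at 3.93, 7.59 and 5.76 CPM under E2 and at 25.2, 28.3 and 33.8 CPM under OIL. All 3 groups were apart, and the difference was -3.20 ± 0.23 (adjusted p = 7.52e-08). The prostaglandin E receptor Ptger4 differed by -1.34 ± 0.15 and Ptges2, a prostaglandin E synthase, by 1.1 ± 0.12. Edn1, the vasoconstrictor endothelin 1, stood at 8.07, 10.2 and 8.43 CPM under E2 and at 16.9, 21.0 and 17.3 CPM under P4, a difference of -1.05 ± 0.14, and OIL was above both at 28.8 to 36.2 CPM. Smooth muscle markers were higher under P4 in 9 of 16 and higher under E2 in none. Their summed level was 17482 to 23074 CPM under P4, 12853 to 13491 CPM under E2 and 9327 to 11142 CPM under OIL, and its part in these results was not tested.

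Vascular genes were 9 higher under E2 and 9 higher under P4 of 28. Vegfa, the main vascular growth and permeability factor, stood at 687.8, 534.5 and 534.6 CPM under E2 and at 113.9, 94.2 and 158.0 CPM under P4, a difference of 2.26 ± 0.21 (adjusted p = 5.53e-07). Nos3, endothelial nitric oxide synthase, differed by 2.86 ± 0.24 and adrenomedullin, Adm, by 2.07 ± 0.20. Ramp3 and Ramp1, coreceptors of the same family, went opposite ways, with Ramp3 higher under E2. Ramp1 stood at 76.0, 92.7 and 75.3 CPM under P4 and at 13.6, 19.2 and 16.5 CPM under E2, a difference of -2.32 ± 0.17. Endothelial markers were higher under E2 in 2 of 14 (Kdr and Plvap) and higher under P4 in 2 (Tek and Cldn5), and these counts were 1 to 5 and 1 to 3 over the fits that each left out a library. The call of Kdr ended without E2 replicate 1 (adjusted p = 0.112) or P4 replicate 2 (adjusted p = 0.0509), and that of Tek without E2 replicate 2 (adjusted p = 0.0679) or P4 replicate 3 (adjusted p = 0.0651).

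Immune gene families differed in their counts. Chemokines and cytokines were higher under E2 in 15 of 33 and higher under P4 in 2, with a median of 0.83. Ccl7, a monocyte chemokine, stood at 25.6, 11.8 and 26.8 CPM under E2 and at 0.36, 1.08 and 1.7 CPM under P4, a difference of 4.36 ± 0.71. Csf1 (1.54 ± 0.25), Cxcl16 (1.80 ± 0.20) and Cx3cl1 (1.29 ± 0.20) were also higher under E2. The 2 members higher under P4 were Il15 (-1.72 ± 0.34), the cytokine of uterine natural killer cells, and Tslp (-1.21 ± 0.38). The call of Tslp ended without E2 replicate 1 (-0.94, adjusted p = 0.0746) or P4 replicate 1 (-0.99, adjusted p = 0.0599). None of the 18 markers of T and natural killer cells was called in either direction.

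Interferon-stimulated genes were higher under P4 in 12 of 34 and higher under E2 in 3, with a median of -0.41. Of the list 44.1% was called, against 57.6% of all genes, and 28.4% of all genes were higher under P4. The count of 12 was 7 without E2 replicate 3 or without P4 replicate 1. Rsad2, the antiviral protein viperin, stood at 1.59, 1.25 and 1.36 CPM under E2, at 9.27, 11.0 and 8.56 CPM under P4 and at 15.7, 20.3 and 19.0 CPM under OIL. The 3 groups did not overlap, E2 was lowest, and the difference was -2.76 ± 0.36 (adjusted p = 1.19e-05). Xaf1 (-1.59 ± 0.21), Ifit3 (-1.83 ± 0.53) and Mx2 (-1.17 ± 0.27) were also higher under P4. Against OIL the list had a median of -0.93 under E2 and -0.28 under P4. The 3 members higher under E2 were Irf9 (0.74 ± 0.18), Bst2 (0.47 ± 0.14), whose call ended without E2 replicate 3 (0.37, adjusted p = 0.0549), and Isg20 (0.64 ± 0.23). The call of Isg20 ended without E2 replicate 1 (0.30, adjusted p = 0.23), P4 replicate 1 (0.51, adjusted p = 0.106) or P4 replicate 2 (0.63, adjusted p = 0.0645).

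Clock genes and targets shared with glucocorticoids also differed. Of 20 clock genes 7 were higher under E2 and 8 higher under P4. Bhlhe40, a repressor of the clock, stood at 295.9, 222.0 and 303.2 CPM under E2, at 51.2, 38.4 and 49.6 CPM under P4 and at 84.9, 80.0 and 65.3 CPM under OIL. All 3 groups were apart, and the difference was 2.56 ± 0.17. Nfil3 (2.70 ± 0.35) and Cry1 (0.79 ± 0.10) were higher under E2, and Per3 (-1.32 ± 0.19) and Rora (-0.73 ± 0.12) higher under P4. The labels give no time of day for the collection. Of 23 genes that glucocorticoids also induce, 5 were higher under E2 and 9 higher under P4. Those on the E2 side were Lcn2, Sgk1 (1.24 ± 0.24), Dusp1 (2.20 ± 0.32), Errfi1 (1.73 ± 0.29) and the fat droplet gene Plin4 (1.64 ± 0.60, and 0.29 without E2 replicate 1, adjusted p = 0.615). Mertk, a receptor for apoptotic cells, was on the P4 side at -1.22 ± 0.10.

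To say which hormone moved each gene, E2 and P4 were each compared with OIL. The comparisons share the 3 OIL libraries, so an unusual OIL library moves both. Against OIL, E2 changed 9519 genes (61.4%), 4583 (29.6%) higher and 4936 (31.9%) lower, and P4 changed 4930 (31.8%), 2509 (16.2%) higher and 2421 (15.6%) lower. With a fold change of at least 2 in addition, E2 changed 3705 genes (23.9%), 1570 (10.1%) higher and 2135 (13.8%) lower, and P4 changed 1270 (8.20%), 465 (3.0%) higher and 805 (5.20%) lower. The median size of a called change was 0.83 under E2 and 0.59 under P4 on the log2 scale. Without P4 replicate 3 the count for P4 was 3146. Scaling by total counts moved the medians of all genes by -0.19 and -0.06, and the share of calls that were higher to 36.0% for E2 and 41.6% for P4.

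The genes then fell into 9 classes. Both hormones moved 1550 genes (10%) higher and 1491 (9.62%) lower. They moved 450 in opposite ways, 201 (1.3%) higher under E2 and lower under P4, and 249 (1.61%) lower under E2 and higher under P4. E2 alone was called for 2832 genes (18.3%) higher and 3196 (20.6%) lower. P4 alone was called for 710 (4.58%) higher and 729 (4.71%) lower, and 4536 genes (29.3%) were called under neither hormone.

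A gene called under one hormone alone is not thereby shown to differ between the hormones, and the direct comparison answers that. It called 2400 of the 2832 genes higher under E2 alone (84.7%), 2473 of the 3196 lower under E2 alone (77.4%), 579 of the 710 higher under P4 alone (81.5%) and 486 of the 729 lower under P4 alone (66.7%). All 450 genes moved in opposite ways were called, which calls of opposite sign against the same OIL libraries all but ensure. Of the 1550 genes that both hormones raised, 965 were higher under E2 than under P4 and 54 higher under P4. Of the 1491 that both lowered, 597 were higher under P4, that is lowered further by E2, and 74 higher under E2. Among the 4536 genes called under neither hormone, 390 were higher under E2 and 451 higher under P4.

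**Figure D3:**
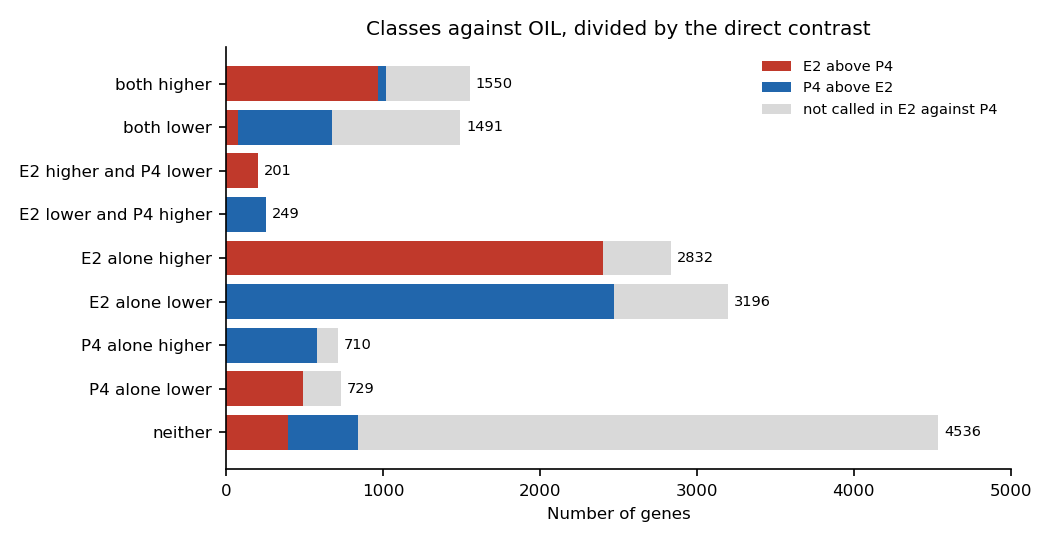
Number of genes in each class by its calls against OIL, with each bar split by the direct comparison of E2 with P4 into higher under E2, higher under P4 and not called. E2 alone holds 2832 and 3196 genes, and of the 1550 genes both hormones raised 965 were higher under E2.

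**Figure D4:**
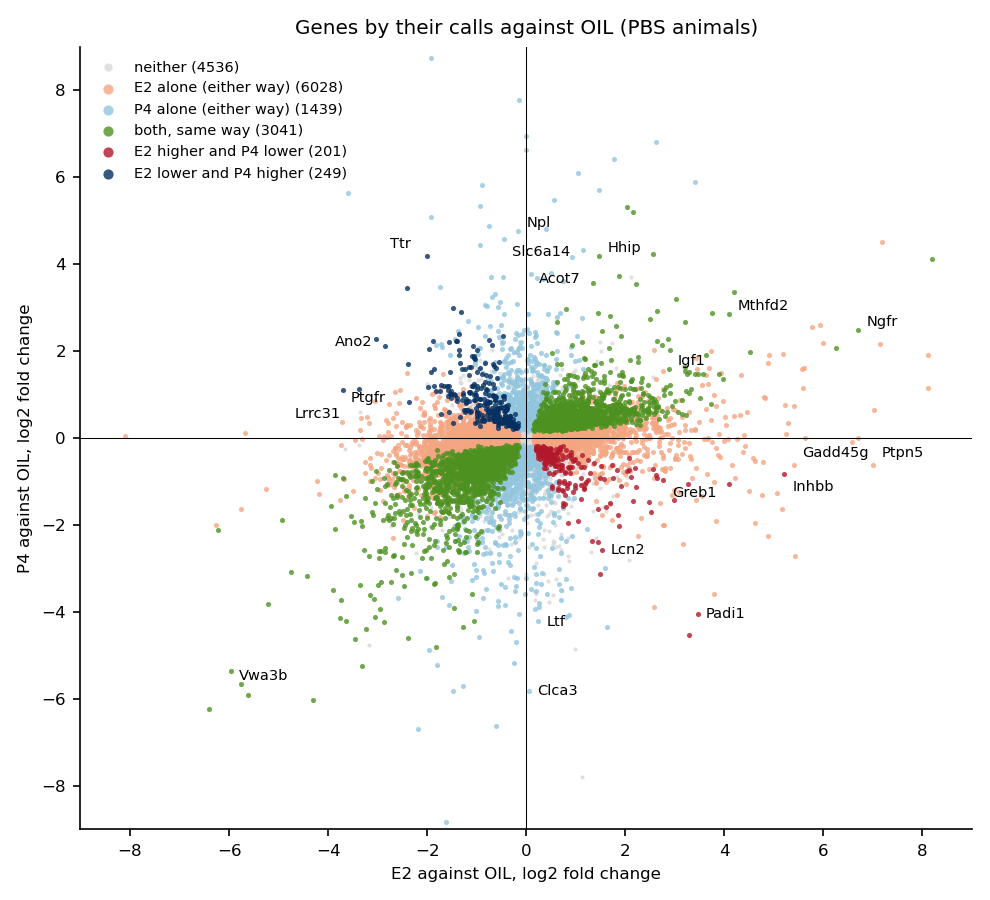
Log2 change under P4 against OIL plotted over the change under E2 against OIL for each of the 15494 tested genes, coloured by class, with axes from -9 to 9 that leave out 3 genes. Both axes share the OIL libraries, so points are not independent between them, and genes moved in opposite ways lie at the lower right (201, higher under E2) and the upper left (249, higher under P4).

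The class sizes moved with single libraries. Without P4 replicate 3 the class raised by both held 973 genes and without P4 replicate 2 the opposite classes held 110 and 146, against 201 and 249. The class lowered by both held 913 to 1540 genes over the 9 fits that each left out a library.

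Genes raised by both hormones included the neurotrophin receptor Ngfr, which stood at 2.18, 2.88 and 7.5 CPM under OIL, 405.9, 370.7 and 530.9 CPM under E2 and 19.2, 12.3 and 38.7 CPM under P4. The 3 groups did not overlap, E2 raised it by 6.70 and P4 by 2.48, and the direct difference was 4.22 ± 0.44 (adjusted p = 1.17e-06). Mthfd2, a mitochondrial enzyme of folate metabolism, rose by 4.10 under E2 and 2.86 under P4, with a direct difference of 1.24 ± 0.33 that was 0.51 without E2 replicate 1 (adjusted p = 0.0406). The matrix protein Adamtsl2 rose by 3.02 under E2 and 3.19 under P4, the placental growth factor Pgf by 2.63 and 2.24, and the orphan receptor Gpr83 by 2.86 and 2.27. For these 3 genes the E2 and P4 libraries overlapped. Their direct differences were -0.16 ± 0.37, 0.39 ± 0.33 and 0.58 ± 0.46, and none was called. The sign for Adamtsl2 turned without E2 replicate 3 (0.09) or P4 replicate 2 (0.08), and that for Pgf turned without E2 replicate 1 (-0.05).

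The genes that the same rule named as most lowered by both hormones included 4 whose OIL level was carried by 1 library. The macrophage genes Itgax, Gpnmb and Atp6v0d2 stood at 112.4, 1213 and 63.6 CPM in OIL replicate 2, against 6.46 and 8.16, 70.3 and 59.8, and 4.55 and 2.52 CPM in the other OIL libraries. Without that library Itgax and Atp6v0d2 were called under neither hormone, and the changes of Gpnmb were -0.84 under E2 and -1.43 under P4. The summed level of 16 macrophage markers was 3284 CPM in OIL replicate 2 and 546.4 to 903.2 CPM in the other 8 PBS libraries, and its part in these results was not tested. Vwa3b stood at 170.6 CPM in OIL replicate 1 and at 4.13 and 2.56 CPM in the other OIL libraries, and without OIL replicate 1 its changes were -1.83 under E2 and -1.23 under P4. Lgi1, a secreted protein best known from neurons, did not depend on a single library for its class. It stood at 24.4, 11.9 and 11.8 CPM under OIL, 0.529, 4.23 and 1.57 CPM under E2 and 2.79, 2.37 and 1.89 CPM under P4, changes of -2.98 and -2.77, with a direct difference of -0.22 ± 0.59 that was 0.30 without E2 replicate 1. The protease Mmp10 and the complement regulator Cfi were also lowered by both, by -1.83 and -1.05 under E2 and by -4.80 and -4.22 under P4. Their direct differences were 2.97 ± 0.62 and 3.16 ± 0.38, with no overlap between E2 and P4.

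Among genes moved in opposite ways, Padi1 rose by 3.46 under E2 and fell by 4.04 under P4, and Lcn2 rose by 1.53 and fell by 2.57. The cystine carrier Slc7a11 rose by 1.49 under E2 and fell by 3.12 under P4, but without E2 replicate 1 its rise was not called (1.28, adjusted p = 0.06). The membrane protein Ano5 rose by 1.86 and fell by 1.77, and Ttc9 rose by 1.70 and fell by 1.49. Without OIL replicate 1 the fall of Ano5 under P4 was 0.91 on the log2 scale, and without E2 replicate 1 the rise of Ttc9 was 1.03. In the other direction Ttr fell by 2.0 under E2 and rose by 4.19 under P4. Aqp11 fell by 1.93 and rose by 1.52, and Sh3rf2, a scaffold protein of stress signalling, fell by 1.87 and rose by 1.59. With an adipocyte score as covariate, the changes of Ttc9, Sh3rf2, Ano2 and St6gal2 under P4 were not called. Ano2 fell by 2.86 and rose by 2.12, where the rise was not called without P4 replicate 2, and St6gal2 kept its class in 3 of 9 fits that each left out a library. Textbook genes of both hormones stood in these classes too: Greb1 and Axin2 rose under E2 and fell under P4, and Ptch1, Hand2, Nr2f2 and Ptgfr fell under E2 and rose under P4.

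Genes raised by E2 alone were led by Has1 (7.02), Ptpn5 (7.0), Gadd45g (5.41) and Lrtm2 (5.28), with changes under P4 of 0.64, -0.62, -0.62 and 0.35 that were not called. Lowered by E2 alone were Lrrc31 (-3.33), Fn3k (-3.26), Fbxo32 (-3.16) and the potassium channel Kcnc2 (-3.13). Fbxo32, a ubiquitin ligase of muscle wasting, stood at 25.8, 45.6 and 25.7 CPM under E2 and at 199.0, 261.3 and 174.0 CPM under P4, near the 257.7 to 339.5 CPM of OIL. These 8 genes were named only from those that the direct comparison called in the direction the class implies. Their E2 and P4 libraries did not overlap.

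Raised by P4 alone were Npl (4.77), Slc6a14 (4.57), Acot7 (3.77) and S100g (3.70). Acot7, a thioesterase of fatty acyl-CoA, stood at 199.2, 268.5 and 216.6 CPM under P4, at 18.5, 18.5 and 16.4 CPM under E2 and at 16.3, 18.6 and 15.1 CPM under OIL. E2 and OIL overlapped, and the direct difference was -3.68 ± 0.14 (adjusted p = 3.88e-10). Without E2 replicate 2 Slc6a14 and S100g were also called lower under E2, which moved them to the class of opposite changes. Lowered by P4 alone were Clca3 (-5.82) and Ltf (-4.22), and by the same rule the fat-rich genes Cyp2e1 (-4.06) and Slc7a10 (-3.79). The last pair overlapped between E2 and P4, with E2 replicate 1 at 451.5 and 31.1 CPM against at most 63.0 and 3.93 CPM in the other E2 libraries. Their falls under P4 were not called without OIL replicate 2 (adjusted p = 0.142 and 0.147), P4 replicate 2 (0.141 and 0.122) or P4 replicate 3 (0.147 and 0.131), and that of Cyp2e1 also not without E2 replicate 3 (0.0546) or OIL replicate 3 (0.0635). Their direct calls (3.91 ± 1.48 and 4.05 ± 1.33) ended without E2 replicate 1, at 1.80 (adjusted p = 0.306) and 1.80 (adjusted p = 0.25), and also without P4 replicate 2 or P4 replicate 3.

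Markers of other cell types moved with some of these results. Adipocyte markers were higher under E2 in 17 of 21, but 3 were called without E2 replicate 1 and 8 without P4 replicate 2 or P4 replicate 3. Their summed level was 9243, 1257 and 2661 CPM under E2, 1162, 904.1 and 881.6 CPM under P4 and 1476, 4426 and 2595 CPM under OIL. All P4 libraries were below all others, and E2 replicate 1 stood apart. With the adipocyte score of each library as a covariate, the direct comparison called 7102 genes, 3682 higher under E2 and 3420 higher under P4. The opposite classes then held 78 and 98 genes in place of 201 and 249. Of the mitosis genes 1 was then called higher under P4 in place of 12. Of the adipocyte markers 2 were then higher under E2 in place of 17, a drop that follows from building the score on them. Among the direct calls named above, those that ended with this covariate included Gli1 (-0.38), Esrra (-0.21), Igf2 (0.60), Igfals (1.47), Stc2 (0.43), Igf2r (-0.42), Btc (-0.74), Star (0.94), Foxo1 (0.34), Msx2 (0.95), Scube3 (0.39) and Mthfd2 (0.56). The calls of the mitosis genes Ccnb2 (-1.07), Cenpe (-0.71), Ndc80 (-0.94) and Racgap1 (-0.60) ended as well, as did those of Mmp9 (-0.94), Reck (-0.36), Lor (-0.79), Bst2 (0.41), Isg20 (0.45), Cldn4 (-0.70), Kdr (0.24), Plvap (0.62) and Actn3 (-1.03). Esr1 was called with it, at 0.51. Some classes against OIL changed with it as well: Ttc9 was then higher under E2 alone, Ano2, Sh3rf2 and St6gal2 were lower under E2 alone, and so were Gpnmb, Itgax and Atp6v0d2. Fbxo32 was then lowered by both hormones, and Cyp2e1 and Slc7a10 were called under neither. How far fat in the libraries sets these values was not tested.

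Skeletal muscle markers summed to 66.8 to 108.7 CPM under E2, 207.3 to 252.0 CPM under P4 and 34.1 to 39.2 CPM under OIL, with 4 of 7 tested genes higher under P4 (Acta1, Ckm, Tnni2 and Actn3) and 2 higher under E2 (Tnnt3 and Mybpc2). Without Acta1 the sum was 34.7 to 42.3 CPM under E2 and 48.1 to 70.0 CPM under P4. Markers of B and plasma cells were higher under E2 in 5 of 12, a count that ranged down to 1 without a library. Eosinophil and mast cell markers summed to 395.0 to 618.3 CPM under P4 and 159.3 to 178.9 CPM under E2. Of the 9 tested only Hdc was called, and it was named after its values were seen. Without Hdc the sum was 118.1 to 184.3 CPM under P4 and 105.5 to 158.3 CPM under E2, which overlap, and the median of the list was 0.19. Hdc, which makes histamine, stood at 245.0, 452.5 and 434.0 CPM under P4 and at 20.6, 64.8 and 16.9 CPM under E2, with OIL at 19.4 to 48.5 CPM. The groups of P4 and E2 did not overlap, and the difference was -3.47 ± 0.47 (adjusted p = 1.71e-05). Markers of kidney and bladder summed to at most 10.1 CPM in any PBS library. Their sums were 4.35 to 5.62 CPM under E2 and 1.08 to 1.44 CPM under P4. Of 4 tested, 2 were higher under E2 and none higher under P4. Ovary markers were higher under E2 in 4 of 7 and higher under P4 in 1. They summed to 91.2 to 100.6 CPM under E2, 68.3 to 69.3 CPM under P4 and 61.1 to 70.1 CPM under OIL. Without Star those sums were 58.1 to 63.5 CPM under E2 and 51.9 to 55.3 CPM under P4. The ovarian genes Cyp19a1 and Fshr were at 0 in all 9 libraries. The part of these lists in the results was not tested.

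**Figure D5:**
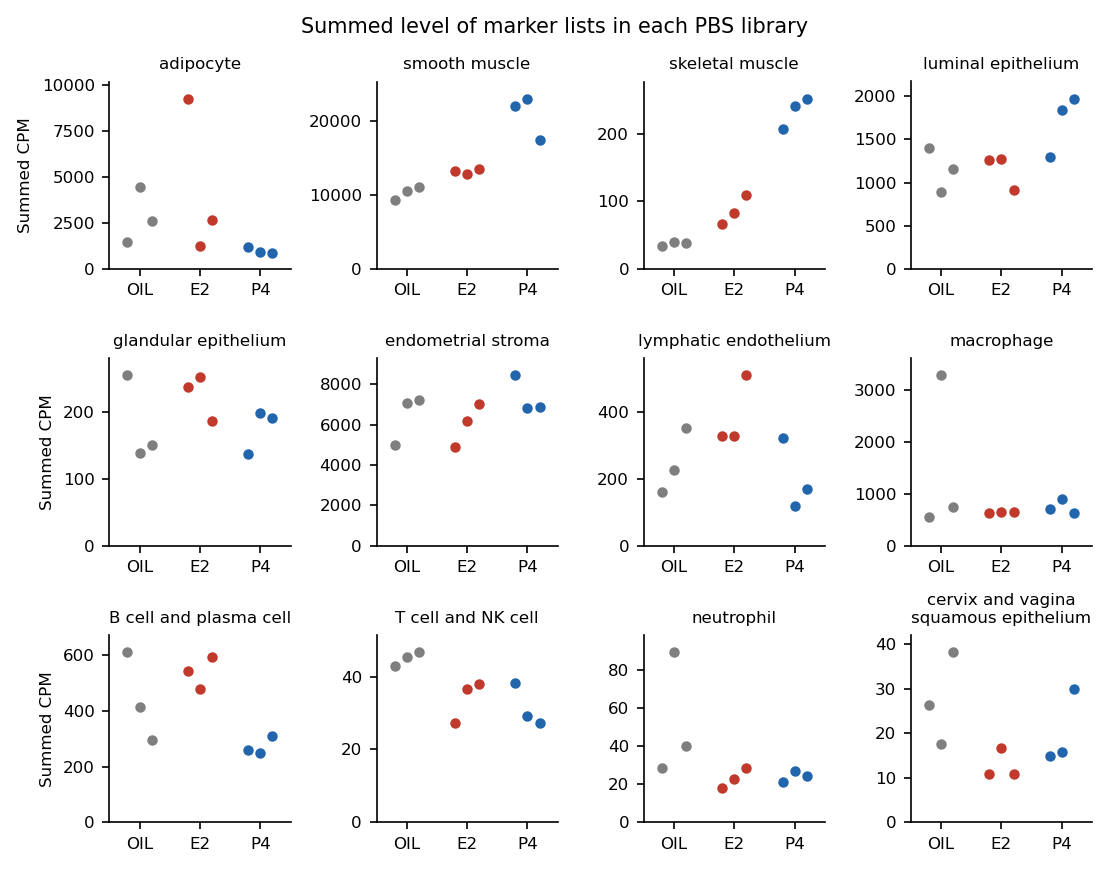
Summed CPM of 12 lists of cell type markers in each of the 9 PBS libraries on a linear axis, 1 point per library, grouped by OIL, E2 and P4. Smooth muscle sums are highest under P4 (17482 to 23074 CPM), and the adipocyte sum of E2 replicate 1, 9243 CPM, stands apart from the other libraries.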

How the data were processed

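Raw counts per gene symbol were deposited by the authors for 18 libraries. All entered the fit, and the 9 PBS libraries, with 18690495 to 39783785 counts each, were compared. The submitters' processing notes list build GRCm38, the aligner HISAT2 (version 2.1.0), the assembler StringTie (1.3.4d), SAMtools (1.6), the trimmer Trimmomatic (0.36), the quality report FastQC (0.11.5) and DESeq2 (1.18.1) in R (3.4.4). The counting tool, annotation and strand setting were not given in the sources used here, so overlapping genes and near-identical copies are uncertain. Per the labels' protocols, RNA was extracted with Trizol from homogenised uterus and libraries were made with a TruSeq total RNA kit.

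Counts were fitted with edgeR 4.0.16 (R 4.3.3) over all 6 groups of the series, which share 1 estimate of spread on 12 residual degrees of freedom, after filterByExpr and TMM scaling, with the robust quasi-likelihood test and Benjamini-Hochberg adjustment over 15494 genes. The SE is the size of the log2 fold change over the square root of F. The fit was tested on simulated data, where it missed most of the smallest changes drawn and few of the largest, and the share of false calls was slightly above the threshold. Pairs of libraries of a group differed beyond sampling noise (chi-square over degrees of freedom 15.7 to 69.4), so each was counted as 1 replicate.

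Named are the 10 largest differences each way without overlap, the 5 or 4 leading genes of each class, the 5 members of a list with the lowest p (fewer where few are described), and a short fixed set of hormone genes. A few genes that these rules name are not reported here. Levels had to reach a mean log2 CPM of 1 for the first 2 rules. The 5 genes of a class moved by both hormones had no overlap of either hormone with OIL. The 4 genes of a class moved by 1 hormone had also to be called in the direct comparison, in the direction the class implies. Members named because a count of a list was 5 or fewer, and Egr2, Zfp36 and Hdc, were named after their values were seen. The comparisons, lists and members were chosen with earlier results of these data known. Alternatives were DESeq2 size factors and Wald test (version 1.42.0), total counts, limma voom (3.58.1), other filters, fewer groups in the fit, a replicate block, an adipocyte score as covariate, removal of mitochondrial and small RNA features, 2-fold classes and leaving out each of the 9 libraries. Sums of markers without their most different member were added after seeing the data. Gene positions are from GENCODE on GRCm38, and promoters from RefSeq.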

Additional observations from a re-analysis of the deposited data

How the results depend on the processing

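Of the counts over all genes, the direct comparison stayed within 1.5 times its value under every alternative run. Over the 9 fits that each left out 1 library it called 7778 to 9198 genes, 4005 to 4673 higher under E2 and 3773 to 4525 higher under P4, and with 2-fold 1156 to 1633 and 1355 to 1907. E2 against OIL gave 8550 to 9462 and P4 against OIL 3146 to 5511. The class raised by both held 973 to 1697 genes, that lowered by both 913 to 1540, those moved in opposite ways 110 to 226 and 146 to 274, E2 alone 4900 to 7192 (6028 with all libraries) and P4 alone 883 to 1861 (1439 with all libraries). With the adipocyte covariate the opposite classes held 78 and 98 genes and P4 alone 714. With the PBS libraries alone in the fit, the direct comparison called 7996 genes and P4 against OIL 3317. The class raised by both then held 1004 and the opposite classes 106 and 154. With 2-fold asked in both comparisons the classes held 114 raised by both, 363 lowered by both, 26 and 53 in opposite ways, 3149 under E2 alone and 714 under P4 alone. The cause of these moves was not tested, apart from the stricter rule of the last.

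Single genes that were not called and turned sign in the direct comparison were Adamtsl2 (0.09 without E2 replicate 3 and 0.08 without P4 replicate 2, with a range down to -0.48 over the left-out libraries), Lgi1 (0.30 without E2 replicate 1, down to -1.25), Pgf (-0.05 without E2 replicate 1, up to 0.64) and, with total counts, Polr1c (-0.02). With the adipocyte covariate Atp6v0d2 (-0.12), Gpnmb (-0.04), Itgax (-0.44), Lgi1 (0.05), Pgf (-0.40) and Vwa3b (0.01) turned, as did the called Cyp2e1 (-0.67), Slc7a10 (-0.46) and Plin4 (-0.24). With limma voom, Jun, Fosb, Nr4a3, Mki67, Adamtsl2 and Esr1 were called, and Mthfd2, Plin4, Reck, Actn3 and H2-DMa were not. With voom 24 mitosis genes were higher under P4 in place of 12.

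Replicate numbers did not pair the libraries: same-numbered libraries of different groups correlated at -0.28 to 0.22 in their deviations from the group means, and differently numbered ones at -0.16 to 0.25. A replicate block gave 4378 higher under E2 and 4282 higher under P4, and ended the calls of Cyp2e1, Slc7a10, Plin4, Isg20, Cd74 and H2-Aa. Low counts limit the precision of genes near the filter.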

Other observations

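Complement genes were higher under E2 in 6 of 21 and higher under P4 in 2, and 3 were higher under E2 with the adipocyte covariate. Of the list 38.1% was called, against 57.6% of all genes, and 29.1% of all genes were higher under E2. C5ar1, the receptor for complement fragment C5a, stood at 10.6, 9.21 and 10.7 CPM under E2 and at 2.11, 2.07 and 1.99 CPM under P4, a difference of 2.31 ± 0.42 in edgeR's quasi-likelihood test (adjusted p = 0.00022). C4b stood at 187.5, 179.8 and 155.4 CPM under E2 and at 63.7, 36.7 and 31.6 CPM under P4, a difference of 1.99 ± 0.50. In both genes every E2 library was above every P4 library. The 2 members higher under P4 were the protease Masp1 (-1.43 ± 0.36) and the complement inhibitor Cd59a (-0.62 ± 0.12). Genes of MHC class II presentation were higher under E2 in 4 of 14 (H2-Aa, H2-Ab1, H2-DMa and Cd74) and higher under P4 in 1 (Ifi30). That is a share of 35.7% called, also below that of all genes. The count of 4 was 0 without E2 replicate 2 or P4 replicate 3, 1 without P4 replicate 2, 2 without E2 replicate 3 or with no filter on low counts, and 0 with total counts or with the adipocyte covariate.

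Markers of lymphatic endothelium were higher under E2 in 3 of 7 (Lyve1, Pdpn and Flt4). Lyve1, the hyaluronan receptor of lymphatic vessels, stood at 105.8, 96.9 and 152.9 CPM under E2, at 45.3, 21.8 and 26.1 CPM under P4 and at 11.7, 21.2 and 30.5 CPM under OIL. All E2 libraries were above all others, and the difference was 1.93 ± 0.42 (adjusted p = 0.000992). The call of Flt4 (1.06 ± 0.37) ended without E2 replicate 3 (adjusted p = 0.101), P4 replicate 2 (adjusted p = 0.103), P4 replicate 3 (adjusted p = 0.0839) or with the adipocyte covariate. Ciliated cell markers were higher under P4 in 4 of 11 (Ccdc39, Ccdc40, Dnahc5 and Rsph1) and higher under E2 in 1 (Tubb2c). Ccdc39, needed to build motile cilia, stood at 14.1, 13.5 and 12.2 CPM under P4 and at 4.07, 5.96 and 4.51 CPM under E2, a difference of -1.46 ± 0.17 (adjusted p = 3.05e-06), and the groups did not overlap. The call of Ccdc40 (-1.24 ± 0.38) ended without E2 replicate 3 (adjusted p = 0.0519), without P4 replicate 3 (adjusted p = 0.0587) or with the adipocyte covariate.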
